A study of Caenorhabditis elegans with 6 samples.

Results

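The Wnt ligand, Frizzled receptor and β-catenin genes of Caenorhabditis elegans were followed through 6 RNA-seq libraries of whole adult worms. The set holds 10 genes of the 46589 in the count table, taken by symbol, and all 10 had enough reads to be tested. They are the 5 Wnt ligands lin-44, egl-20, cwn-1, cwn-2 and mom-2, the 4 Frizzled receptors lin-17, mig-1, cfz-2 and mom-5, and the β-catenin bar-1. The worms were wild type of strain Bristol N2, collected as adults 5 days after the L4 larval stage. By the labels 3 libraries are controls and 3 come from worms given RNA interference (RNAi), whose named target bcat-1 encodes a transferase of branched-chain amino acids, and the methods of the study describe RNAi as feeding with E. coli HT115 from young adulthood onwards. Pellets of many animals went into each library, and the methods describe daily washing to remove progeny. RNAi by feeding reaches neurons of wild type worms poorly.

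Wnts are secreted, lipid-modified signals that bind Frizzled receptors at the cell surface. In the branch that uses BAR-1, receptor activation spares the β-catenin from a destruction complex, so that it can enter the nucleus and act with POP-1, the worm's TCF factor, on target genes. In the worm these genes are best known from development, where they set the polarity of dividing cells, guide migrating neuroblasts and growing axons, and keep the vulval precursor cells competent. MOM-2 and MOM-5 act in the early embryo, where the mother supplies their messages through the oocyte.

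Depth was 32784443 to 43274827 counted reads per control library and 38347771 to 44137496 per library labelled bcat-1 RNAi, here written RNAi-labelled library. The targeted gene did not check the labels, since bcat-1 stood at 144 ± 15.6 CPM in the controls against 204 ± 93.98 CPM in the RNAi-labelled libraries (SD, n = 3, log2 fold change 0.50 with a standard error of 0.30, edgeR adjusted p = 0.169, exact permutation p = 0.4 on unscaled CPM). Without RNAi replicate 2 its log2 fold change was 0.79 (edgeR adjusted p = 0.00291). By qPCR, after a shorter treatment, the study reports that bcat-1 RNAi abolished the transcript. Levels here are counts per 1e6 counted reads scaled with trimmed-mean (TMM) factors and written CPM. Levels of different genes are compared by the deposited RPKM, that is reads per 1e6 mapped reads and kilobase of exon. Higher and lower always refer to the RNAi-labelled libraries relative to the controls. Separate cultures are not named in the labels, so the spread behind each p-value is that among these samples and may be technical. In whole worms, fewer cells of a type and less RNA per cell cannot be told apart.

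Of the 10 genes, 6 were higher and 2 were lower in the RNAi-labelled libraries. The receptors lin-17, cfz-2 and mig-1, the ligands cwn-2 and cwn-1 and the β-catenin bar-1 rose, while the ligand mom-2 and the receptor mom-5 fell. The ligands egl-20 and lin-44 did not pass the test. The call was an adjusted p under 0.05 (quasi-likelihood F test of edgeR, Benjamini-Hochberg over all 16391 tested genes). Among all those genes 61.6% were called, 36% higher and 25.6% lower, so a call as such is common in these data. The CPM values of the groups did not overlap for 9 of the 10 genes, against 71.2% of all tested genes. The median log2 fold change was 0.79 over the 10 genes and 0.15 over all tested genes. Scaling changed that overall median, which was 0.02 with DESeq2's size factors, 0.28 with upper quartile factors and 0.40 with library size only. The 8 calls kept their direction and stayed called under those scalings and under the other settings tried, 17 in all.

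**Figure D1:**
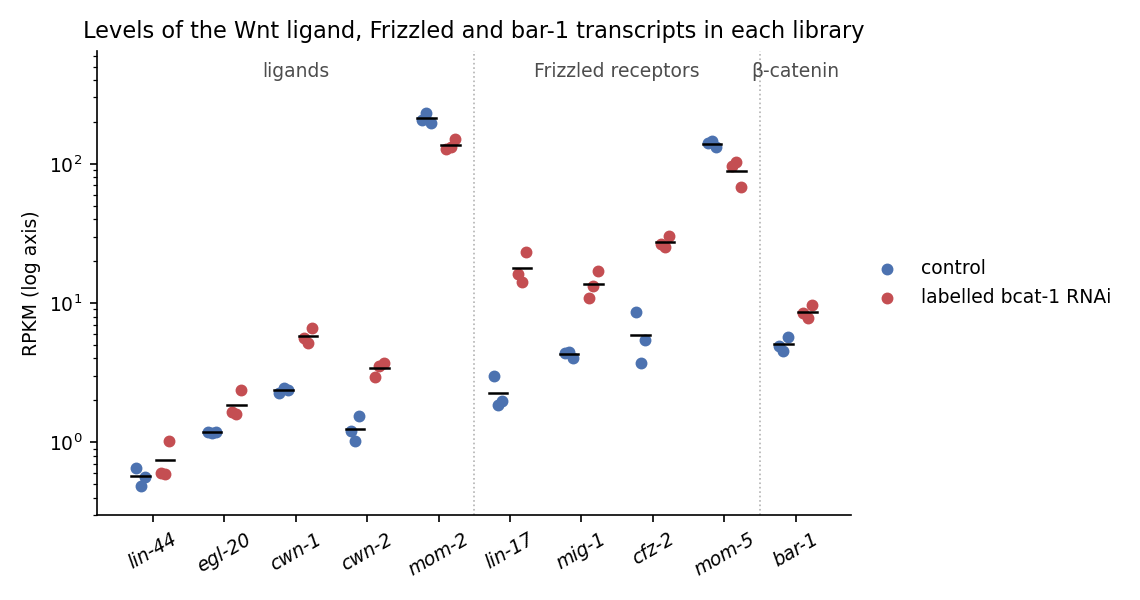
Deposited RPKM of the 10 genes on a log axis, 1 point per library and a bar at each group mean (n = 3). The ligand mom-2 and the receptor mom-5 lie far above the other genes in every library, and their points are lower in the RNAi-labelled libraries, whereas lin-17, mig-1, cfz-2, cwn-1, cwn-2 and bar-1 are higher there.

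The set was led by a single ligand and a single receptor. In the controls the mean RPKM was 212 ± 17.3 for mom-2 and 139.6 ± 7.36 for mom-5 (SD, n = 3), and no other member averaged above 5.89. Below them came cfz-2, bar-1, mig-1, cwn-1, lin-17, cwn-2, egl-20 and lin-44 in that order. The ranges of neighbours overlapped for cfz-2 and bar-1, for cwn-1 and lin-17, and for cwn-2 and egl-20, so those pairs were not separated by their spread. At the bottom of the order lin-44 had a mean RPKM of 0.569 ± 0.084 (SD, n = 3). In the RNAi-labelled libraries the order was mom-2, mom-5, cfz-2, lin-17, mig-1, bar-1, cwn-1, cwn-2, egl-20 and lin-44. There lin-17 took rank 4 with a mean RPKM of 17.9 ± 4.88 (SD, n = 3), against rank 7 in the controls, and its range overlapped that of mig-1. The exon lengths behind the RPKM values are those of the authors' annotation.

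The ligand mom-2 (F38E1.7) lies on the plus strand of chromosome V from 8355988 to 8358185 in WBcel235 and has 6 exons in the Ensembl annotation. It encodes the Wnt that the blastomere P2 of the early embryo sends to its neighbour to induce endoderm. Its level was 343, 405 and 324 CPM in control replicates 1 to 3, against 187, 190.1 and 203 CPM in RNAi replicates 1 to 3. The lowest control was thus well above the highest RNAi-labelled library. The mean fell from 358 ± 42.1 to 193 ± 8.80 CPM (SD, n = 3), which is 1.85-fold lower (log2 −0.89, standard error 0.11, edgeR adjusted p = 1.65e-04). Of all tested genes, 4.03% had a lower log2 fold change.

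The remaining ligands were weakly expressed and moved the other way or not measurably. The gene cwn-1 (K10B4.6, chromosome II, 130983 to 133598, minus strand) encodes a Wnt that acts in cell migration along the body. Its level was 3.20, 3.71 and 3.35 CPM in the controls against 7.06, 6.42 and 7.64 CPM in the RNAi-labelled libraries. Every RNAi-labelled library was above every control, and the rise was 2.06-fold (log2 1.05, standard error 0.15, edgeR adjusted p = 4.86e-04). The gene cwn-2 (W01B6.1, chromosome IV, 10067816 to 10070251, plus strand) encodes a Wnt that acts in the placement and outgrowth of neurons. It stood at 1.73, 1.56 and 2.22 CPM in the controls against at 3.81, 4.46 and 4.35 CPM in the RNAi-labelled libraries. Again the groups were apart, with a rise of 2.28-fold (log2 1.19, standard error 0.19, edgeR adjusted p = 8.46e-04). Its annotated exons share 50 bases with the antisense gene W01B6.3, which had 17 to 30 reads per library.

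The posterior Wnt egl-20 (W08D2.1, chromosome IV, 9812357 to 9815532, minus strand) guides the migration of the left Q neuroblast and its descendants. Its level was 2.35, 2.43 and 2.34 CPM in the controls against 2.88, 2.73 and 3.81 CPM in the RNAi-labelled libraries. The groups did not overlap, but the difference did not pass the test (log2 0.40, 95% interval −0.026 to 0.83, edgeR adjusted p = 0.0918). Over the alternatives its adjusted p ran from 0.0289 to 0.304, and it was called higher in 5 of 17. The ligand lin-44 (E01A2.3, chromosome I) is made in the tail epidermis and orients cells there. It had 22 to 54 reads per library, with 0.966, 0.762 and 0.824 CPM in the controls against 0.790, 0.761 and 1.22 CPM in the RNAi-labelled libraries. The groups overlapped, and the log2 fold change of 0.11 had a 95% interval from −0.48 to 0.70 (edgeR adjusted p = 0.726). A rise or fall of lin-44 within that interval was not detectable at this depth, and its sign changed with the scaling.

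**Figure D2:**
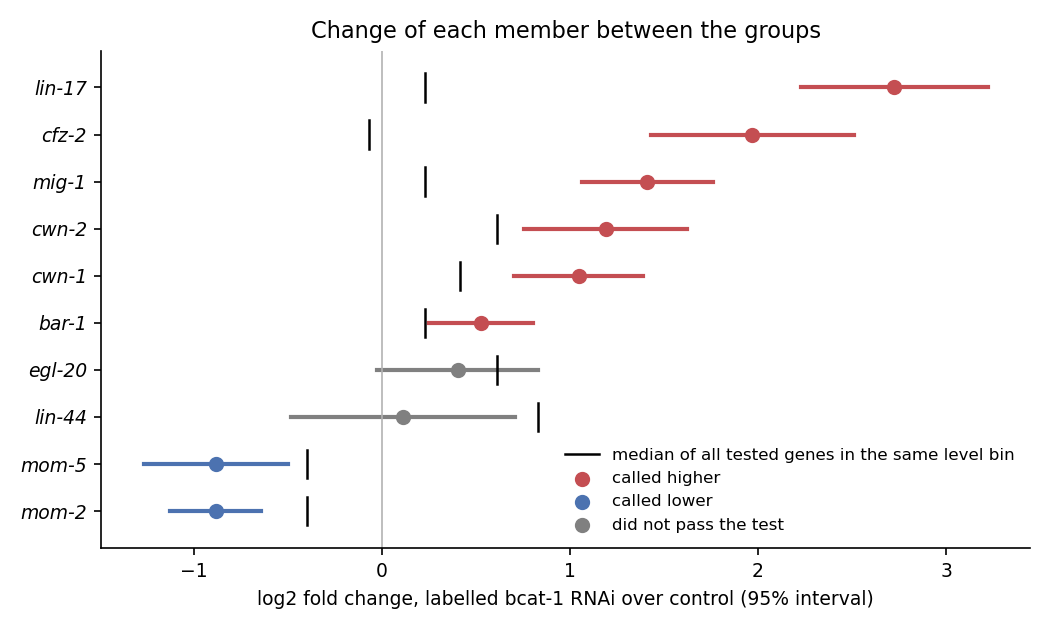
Log2 fold change of each of the 10 genes with its 95% interval from edgeR, and the median of all tested genes in the same decile of mean level as a black tick. The intervals of lin-17, cfz-2, mig-1, cwn-2, cwn-1 and, narrowly, bar-1 lie to the right of their ticks and those of mom-2 and mom-5 to the left, while the intervals of egl-20 and lin-44 include 0.

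Among the receptors, mom-5 fell and the other 3 Frizzled genes rose. The receptor mom-5 (T23D8.1, chromosome I) acts with MOM-2 in the early embryo. Its level was 278, 305 and 258 CPM in the controls against 169.9, 177 and 109 CPM in the RNAi-labelled libraries, with RNAi replicate 3 the lowest. No RNAi-labelled library reached the lowest control, and the mean was 1.85-fold lower (log2 −0.88, standard error 0.17, edgeR adjusted p = 0.00214). Without RNAi replicate 3 the log2 fold change was −0.67, still called. Its exons share 66 of 2483 annotated bases with the antisense gene tsp-7, which was not called (log2 −0.02, edgeR adjusted p = 0.911).

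The receptor gene lin-17 (Y71F9B.5, chromosome I) had the largest change of the set. LIN-17 orients asymmetric divisions, including those of the tail that depend on LIN-44. Its level was 7.16, 4.68 and 4.69 CPM in the controls against 34.6, 29.5 and 45.6 CPM in the RNAi-labelled libraries. The rise from 5.51 ± 1.43 to 36.5 ± 8.22 CPM (SD, n = 3) was 6.61-fold (log2 2.72, standard error 0.22, edgeR adjusted p = 1.94e-05). Of all tested genes, 95.5% had a lower log2 fold change.

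The receptor gene cfz-2 (F27E11.3, chromosome V, 3441504 to 3444877, minus strand) acts in neuronal cell migration. Its level was 19.1, 8.77 and 11.9 CPM in the controls against 52.6, 49.2 and 54.7 CPM in the RNAi-labelled libraries. Control replicate 1 was the highest control and still far below the lowest RNAi-labelled library. The rise was 3.91-fold (log2 1.97, standard error 0.24, edgeR adjusted p = 1.7e-04), and without control replicate 1 the log2 value was 2.31. The receptor gene mig-1 (Y34D9B.1, chromosome I) is needed with LIN-17 for the migration of Q neuroblast descendants. It stood at 8.20, 8.87 and 7.57 CPM in the controls against at 18.1, 21.7 and 25.7 CPM in the RNAi-labelled libraries, again with no overlap. The rise was 2.66-fold (log2 1.41, standard error 0.15, edgeR adjusted p = 9.29e-05).

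The β-catenin gene bar-1 (C54D1.6) lies on the minus strand of chromosome X from 7166005 to 7170625 and has 17 exons. BAR-1 is the worm β-catenin closest in role to that of the canonical pathway of other animals. Its level was 13.7, 13.3 and 15.8 CPM in the controls against 21.02, 18.9 and 21.9 CPM in the RNAi-labelled libraries. The groups were apart, but the rise was the smallest of those called, at 1.44-fold (log2 0.53, standard error 0.12, edgeR adjusted p = 0.00547). Its exons share 17 bases with the antisense gene pgp-10, which had 65 to 275 reads per library and rose itself (log2 1.23).

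Across the whole table the direction of change went with the level of a gene. Among the tested genes with a mean of 9.10 to 21.03 CPM, the decile of level that holds lin-17, mig-1 and bar-1, 42.9% were called higher and 18.5% lower, and their median log2 value was 0.23. Among those above 151 CPM, where mom-2 and mom-5 lie, 6.41% were called higher and 65.1% lower, and their median was −0.40. The direction of these 5 members was thus also the more frequent one among genes of their level. The deciles that hold cwn-1 (4.16 to 9.09 CPM) and both cwn-2 and egl-20 (1.93 to 4.16 CPM) had medians of 0.41 and 0.61. In the decile of lin-44 (0.431 to 0.895 CPM) the median was 0.83, above the upper end of the interval of lin-44. The decile of cfz-2 (21.05 to 44.3 CPM) had a median of −0.07. Deciles were set by the mean over all 6 libraries, so the change of a gene also shifts its decile. The control values of cfz-2, from 8.77 to 19.1 CPM, were all below its decile, and the decile from 9.10 to 21.03 CPM had a median of 0.23.

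The makeup of the ligand and receptor transcripts differed between the groups. Per length, mom-2 held 97.5%, 97.8% and 97.2% of the summed RPKM of the 5 ligands in control replicates 1 to 3, against 92.2%, 92.4% and 91.7% in RNAi replicates 1 to 3. The sum of the 5 ligands was 218 ± 17.1 RPKM in the controls and 149 ± 14.7 RPKM in the RNAi-labelled libraries, while the sum of the 4 other ligands was 5.36 ± 0.277 and 11.8 ± 1.67 RPKM (SD, n = 3). The share of mom-2 was therefore lower in each RNAi-labelled library than in each control.

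Among the Frizzled genes the shift was larger. The share of mom-5 in the summed Frizzled RPKM was 89.9%, 93.6% and 92.0% in the controls and 64.4%, 66.1% and 49.2% in the RNAi-labelled libraries. The share of cfz-2 was 2.38% to 5.46% in the controls and 16.3% to 21.8% in the RNAi-labelled libraries, and the share of lin-17 was 1.18% to 1.90% and 9.07% to 16.9%. The summed Frizzled RPKM itself was 152 ± 7.90 in the controls and 148 ± 8.68 in the RNAi-labelled libraries (SD, n = 3), and its ranges overlapped. The deposited RPKM carries no TMM scaling. In CPM, which is TMM-scaled but not per length, the Frizzled sum was 282 to 327 in the controls. It was at most 277 CPM in the RNAi-labelled libraries, so the groups did not overlap on that scale. Whether the Frizzled total differed between the groups thus depended on the scale. The ratio of mom-5 to lin-17 RPKM was 47.3 to 79.3 in the controls and 2.91 to 7.29 in the RNAi-labelled libraries. These sums and shares were not tested, since they are built from the same members.

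**Figure D3:**
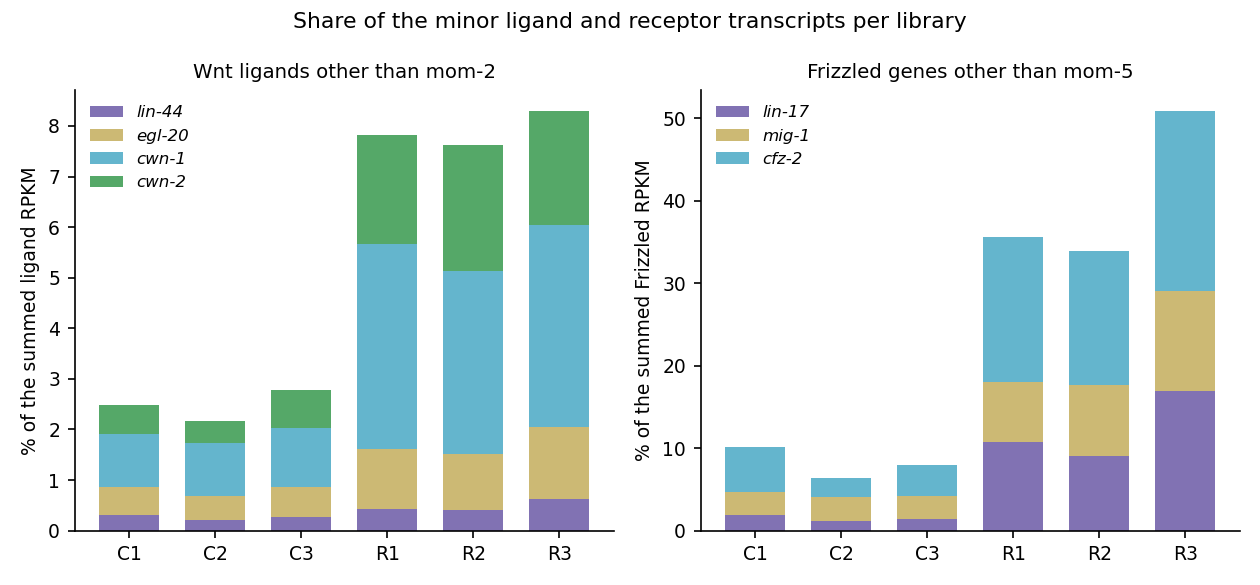
Stacked bars per library (C1 to C3 control, R1 to R3 labelled bcat-1 RNAi) of the ligands other than mom-2 as a percentage of the summed ligand RPKM, and of the Frizzled genes other than mom-5 as a percentage of the summed Frizzled RPKM. The bars of all 3 RNAi-labelled libraries are taller than those of the controls in both panels, and the remainder up to the whole is mom-2 or mom-5.

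Marker lists of cell types moved with these genes, and their part in the changes was not tested. Over all tested genes 36% were called higher and 25.6% lower. In the lowest decile of level 57.4% were called higher and 1.71% lower, and in the highest 6.41% and 65.1%. The lists were not matched for level, so their counts also carry this trend. All 14 germ line and oocyte markers fell, with log2 fold changes from −1.08 to −0.55 and a median of −0.83, and their summed level was 11506 to 13969 CPM in the controls against 6354 to 7151 CPM in the RNAi-labelled libraries. Of 20 neuronal markers 16 rose, with a median of 1.45 over the list and sums of 446 to 480 and 784 to 873 CPM. Of 12 epidermis and seam markers 10 rose and 1 fell, with a median of 2.27 over the list and sums of 77.7 to 113 and 161 to 212 CPM. Of 10 larval moulting genes 7 rose and 1 fell, and their sums were 147 to 219 and 712 to 940 CPM. Of 9 tested embryonic genes 2 rose and 4 fell, with sums over all 12 listed of 229 to 259 and 168 to 178 CPM. The lists of body wall muscle (3 of 12 rose, 5 fell) and intestine (5 of 11 rose, 3 fell) moved in both directions, with muscle sums of 1366 to 1587 and 1148 to 1487 CPM and intestine sums of 17834 to 22801 and 10385 to 12604 CPM. Among all listed markers only the embryonic gene med-1 had a library with no read.

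The falls of mom-2 and mom-5 were of the size of those of the germ line markers. The CPM of mom-2 was 2.88%, 2.90% and 2.82% of the summed germ line and oocyte markers in the controls and 2.61%, 2.68% and 3.20% in the RNAi-labelled libraries. The CPM of mom-5 was 2.33%, 2.18% and 2.24% of that sum in the controls and 2.38%, 2.49% and 1.72% in the RNAi-labelled libraries. For both genes all 3 control values lay inside the range of the RNAi-labelled libraries, in which RNAi replicate 3 stood apart.

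Relative to the sum of the neuronal markers the groups stayed apart for some of the rising genes and overlapped for others. The CPM of lin-17 was 0.977% to 1.52% of the summed neuronal markers in the controls and 3.57% to 5.81% in the RNAi-labelled libraries, and that of cfz-2 was 1.97% to 4.06% and 5.95% to 6.97%. The ranges of mig-1 were 1.58% to 1.99% and 2.07% to 3.27%, which do not overlap. Those of cwn-1 (0.678% to 0.832% and 0.777% to 0.974%) and cwn-2 (0.350% to 0.462% and 0.436% to 0.555%) overlapped, and those of bar-1 were lower in the RNAi-labelled libraries (2.90% to 3.30% and 2.29% to 2.79%). Against the sum of the epidermis and seam markers, lin-17 stood at 5.64% to 6.35% and 13.9% to 28.3%, with no overlap. There cfz-2 stood at 11.3% to 16.97% and 23.2% to 33.9%, also apart, whereas mig-1, cwn-1, cwn-2 and bar-1 overlapped. Such sums are weighted towards their highest markers. By log2 fold change, lin-17 (2.72) was above the medians of both lists (1.45 neuronal, 2.27 epidermis and seam). The value of cfz-2 (1.97) was above only the neuronal median, and that of mig-1 (1.41) was below both.

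**Figure D4:**
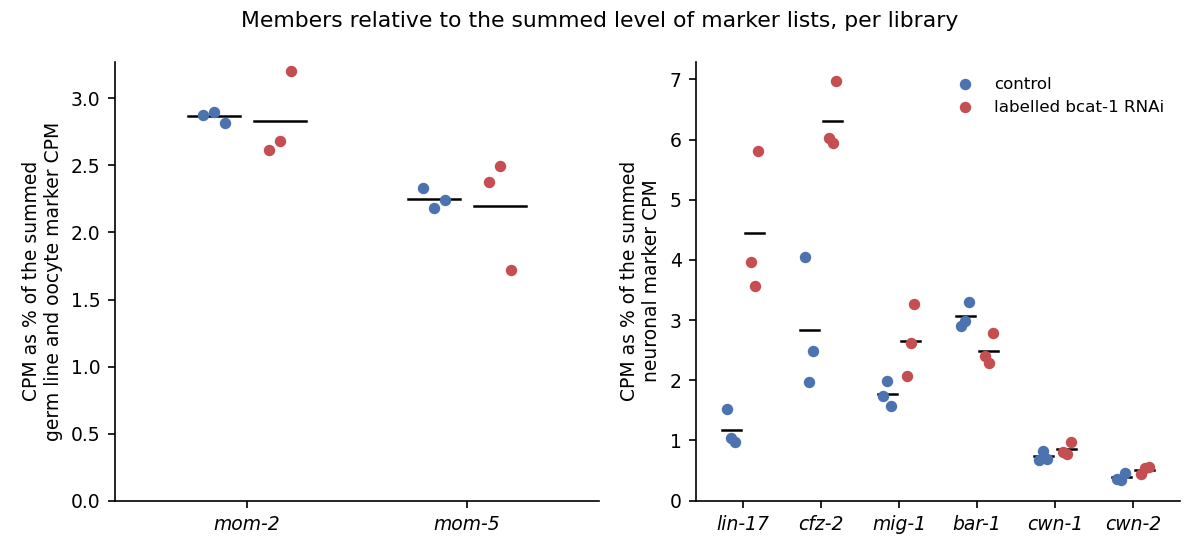
CPM of members as a percentage of the summed CPM of the germ line and oocyte markers (mom-2 and mom-5) or of the neuronal markers (the rising genes), 1 point per library and a bar at each group mean (n = 3). Both groups of mom-2 and mom-5 centre near the same value. The points of lin-17, cfz-2 and mig-1 remain higher in the RNAi-labelled libraries, those of bar-1 are lower there, and those of cwn-1 and cwn-2 overlap.

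Of 32 other genes of the Wnt pathway, 9 rose, 13 fell and 10 missed the threshold. The median of the list was −0.21 on the log2 scale, against 0.15 over all tested genes. Calls over all tested genes were 36% higher and 25.6% lower. In the deciles of level above 44.3 CPM, where mig-14, mig-5 and dsh-2 lie, 43.9% to 65.1% were called lower. With library size only the counts of the list were 11 higher and 3 lower, and without control replicate 2 they were 7 and 8. Leaving out 1 of the other libraries gave 9 to 13 lower. The number of falls in this list thus changed with the scaling. The genes mig-14, mig-5 and dsh-2 were called lower under all 17 alternatives, and with library size only they were the 3 lower calls, so that mig-14 was then the 1 secretion gene called lower.

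Of 8 genes that act in bringing Wnts out of the cell, 6 fell, and mom-1, the Porcupine that attaches the lipid, and the retromer gene vps-26 did not pass the test. The largest fall was that of mig-14, the Wntless carrier that takes Wnts to the cell surface. Its level was 80.9, 85.5 and 83.1 CPM in the controls against 55.8, 56.7 and 49.1 CPM in the RNAi-labelled libraries, with no overlap (log2 −0.63, standard error 0.09, edgeR adjusted p = 5.36e-04). All secretion genes except mom-1 lay in deciles of level where falls were common, with 43.9% and 62.7% called lower in the deciles from 44.3 to 80.7 and from 80.8 to 151 CPM.

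The extracellular and membrane modulators showed no fall that passed the test, and the secreted Frizzled-related inhibitor sfrp-1 rose. Its level was 1.68, 1.005 and 1.65 CPM in the controls against 3.23, 2.47 and 3.58 CPM in the RNAi-labelled libraries, a rise of 2.11-fold (log2 1.08, standard error 0.25, edgeR adjusted p = 0.00481). The other gene of this role that rose was plr-1, named after its values were seen, which encodes a membrane ubiquitin ligase that lowers Frizzled at the cell surface (log2 0.79, edgeR adjusted p = 0.00187). The Ror receptor cam-1 and the Ryk receptor lin-18 did not pass the test.

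The 3 Dishevelled genes, whose products carry the signal from Frizzled into the cell, moved in different directions. The level of mig-5 was 194 ± 13.4 CPM in the controls against 125 ± 5.33 CPM in the RNAi-labelled libraries (log2 −0.63, edgeR adjusted p = 4.45e-04, SD over n = 3), and that of dsh-2 was 188 ± 10.6 and 138 ± 11.4 CPM (log2 −0.44, edgeR adjusted p = 0.00386, SD over n = 3). By contrast dsh-1 rose from 41.1 ± 2.22 to 58.8 ± 4.34 CPM (log2 0.52, edgeR adjusted p = 0.00204, SD over n = 3). The ratio of mig-5 to dsh-1 RPKM was 8.25 to 10.2 in the controls and 4.03 to 4.29 in the RNAi-labelled libraries. Both falling genes lie in the decile of level above 151 CPM, where 65.1% were called lower and the median was −0.40. The decile of dsh-1, from 44.3 to 80.7 CPM, had 14.2% called higher and a median of −0.23. The control mean of dsh-1, 41.1 CPM, lay in the decile below, which had 27.5% called higher and a median of −0.07.

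In the destruction complex, which marks β-catenin for breakdown, 2 of 6 genes rose and 2 fell. The Axin-like gene axl-1 rose from 1.09, 1.39 and 1.57 CPM in the controls to 4.97, 4.59 and 5.44 CPM in the RNAi-labelled libraries. This was a 3.71-fold rise with no overlap (log2 1.89, standard error 0.20, edgeR adjusted p = 6.94e-05), and its exons share 83 bases with the antisense gene tnsl-1. The APC homologue apr-1 fell by 0.33 on the log2 scale (edgeR adjusted p = 0.0279), a call that was lost in 10 of 17 alternatives, among them the fits that drop control replicate 1 (edgeR adjusted p = 0.0513), control replicate 2 (0.0806) or RNAi replicate 1 (0.0530).

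Unlike bar-1, the other β-catenins did not rise. The adhesion β-catenin hmp-2 fell from 197 ± 14.6 to 152 ± 13.3 CPM (log2 −0.38, edgeR adjusted p = 0.0100, SD over n = 3), and this call was lost in 5 of 17 alternatives, namely library size only, factors from genes above the median level and the limma fits (adjusted p = 0.116 to 0.144). The values of wrm-1 and sys-1, which act in the asymmetry pathway of dividing cells, were 168 ± 13.3 and 157 ± 5.23 CPM and 68.5 ± 1.16 and 65.4 ± 4.39 CPM (SD, n = 3). Their log2 intervals were −0.30 to 0.11 and −0.27 to 0.14. The difference between bar-1 and these genes was not tested, and it went with a difference in level. The decile of hmp-2 and wrm-1, above 151 CPM, had a median of −0.40, and that of sys-1 had −0.23. In the decile of bar-1 the median was 0.23.

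In the nuclear branch, the TCF factor pop-1, named after its values were seen, stood at 69.6, 59.6 and 64.6 CPM in the controls against at 86.4, 84.2 and 43.1 CPM in the RNAi-labelled libraries. The groups overlapped only through RNAi replicate 3 (log2 0.14, edgeR adjusted p = 0.602), and without it pop-1 passed as higher (log2 0.42, edgeR adjusted p = 0.00444). The Groucho co-repressor unc-37 fell (log2 −0.40, edgeR adjusted p = 0.0108) and tap-1, a partner of the MOM-4 kinase, rose (log2 0.38, edgeR adjusted p = 0.0220). The call of tap-1 was lost in 6 of 17 alternatives, among them those without RNAi replicate 1, control replicate 2 or control replicate 3 (edgeR adjusted p = 0.0644, 0.0580 and 0.0754) and that of unc-37 in the same 5 alternatives as for hmp-2 (adjusted p = 0.156 to 0.213). The exons of pop-1 share 100 bases with the noncoding gene W03D8.13 and those of unc-37 share 83 bases with W02D3.12.

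The 3 planar polarity genes rose, and fmi-1 had the largest change of any Wnt pathway gene examined. FMI-1 is the Flamingo cadherin, which acts in axon guidance. Its level was 22.02, 9.60 and 9.30 CPM in the controls against 308, 273 and 302 CPM in the RNAi-labelled libraries. The rise of 21.5-fold (log2 4.42, standard error 0.32, edgeR adjusted p = 1.1e-05) was larger without control replicate 1 (log2 4.95). The Prickle homologue prkl-1 rose from 2.81 ± 0.584 to 14.6 ± 0.279 CPM (log2 2.37, edgeR adjusted p = 1.06e-05, SD over n = 3), and it shares 24 exon bases with him-3 on the other strand. The Van Gogh homologue vang-1 rose from 34.6 ± 2.96 to 46.0 ± 0.808 CPM (log2 0.41, edgeR adjusted p = 0.00669, SD over n = 3), and with DESeq2 this call was lost (adjusted p = 0.0703). It shares 113 exon bases with B0410.3 on the other strand, which was not called. Over all tested genes 36% were called higher. The share was 47.3% in the decile of prkl-1 (4.16 to 9.09 CPM) and 27.5% in that of vang-1 (21.05 to 44.3 CPM). By its mean over all libraries fmi-1 lay above 151 CPM, where 6.41% were called higher, but its controls were at most 22.02 CPM.

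**Figure D5:**
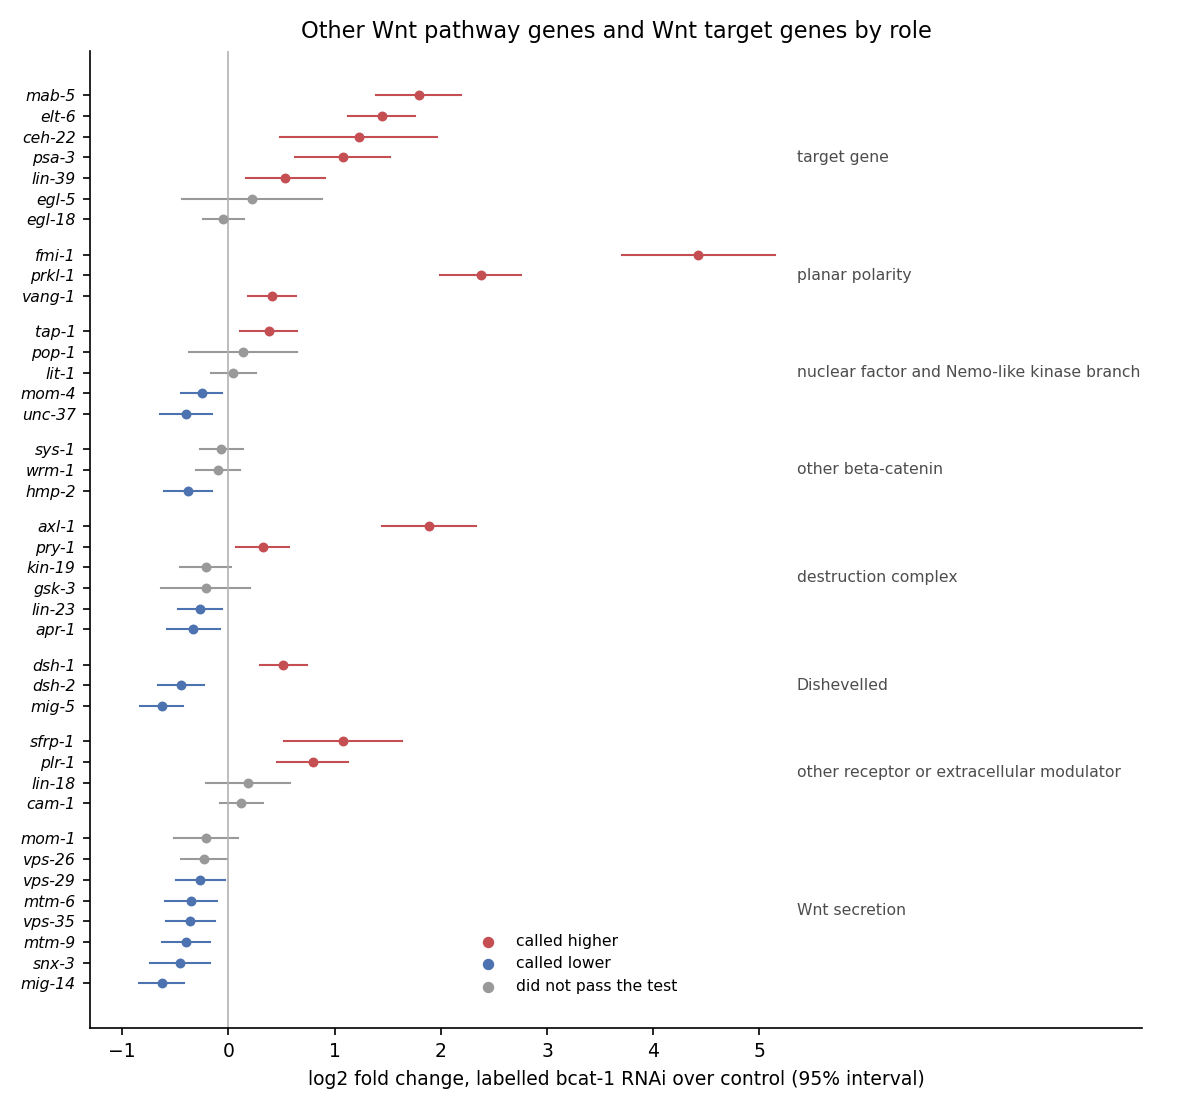
Log2 fold change with its 95% interval from edgeR for 32 other Wnt pathway genes and 7 Wnt target genes, grouped by role, red where called higher, blue where called lower and grey otherwise. Points of the secretion genes lie at or left of 0, and fmi-1 lies farthest to the right at 4.42.

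Of 7 genes described as Wnt targets in larval development, 5 rose and 2 did not pass the test. The Hox gene mab-5, which EGL-20 and BAR-1 switch on in the left Q neuroblast, stood at 1.14, 1.005 and 1.18 CPM in the controls against at 3.76, 4.04 and 3.79 CPM in the RNAi-labelled libraries (log2 1.79, standard error 0.18, edgeR adjusted p = 5.56e-05). The Hox gene lin-39, a target of BAR-1 in the vulval precursor cells, rose from 5.24 ± 0.249 to 7.61 ± 1.29 CPM (log2 0.54, edgeR adjusted p = 0.0190, SD over n = 3), and this call was lost without control replicate 2 (adjusted p = 0.0669), without RNAi replicate 2 (adjusted p = 0.0973) and with DESeq2 (adjusted p = 0.0582). The Hox gene egl-5 had 0.824 ± 0.240 and 0.960 ± 0.220 CPM (edgeR adjusted p = 0.529, SD over n = 3).

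Among the other targets, the GATA factor elt-6 rose from 8.93 ± 1.37 to 24.3 ± 1.22 CPM (log2 1.44, edgeR adjusted p = 4.67e-05, SD over n = 3). Its neighbour on chromosome IV and partner in seam cells, egl-18, stood at 90.6 ± 5.04 and 87.7 ± 1.73 CPM (SD, n = 3, log2 −0.05, 95% interval −0.24 to 0.15), and it was called higher only with limma on RPKM plus 1 (adjusted p = 0.0478). The Meis-related gene psa-3 rose from 1.55 ± 0.251 to 3.29 ± 0.389 CPM (log2 1.08, edgeR adjusted p = 0.00170, SD over n = 3) and the homeobox gene ceh-22 from 0.420 ± 0.127 to 0.998 ± 0.318 CPM (log2 1.23, edgeR adjusted p = 0.0102, SD over n = 3). Of the 2369 exon bases of ceh-22, 555 are shared with the noncoding gene F29F11.19, which had at most 1 read in a library. After dropping both control replicate 1 and RNAi replicate 3, the call remained for 3 targets and was lost for lin-39 and ceh-22 (edgeR adjusted p = 0.0675 and 0.0739). The deciles of level below 9.09 CPM, where all targets except egl-18 and elt-6 lie, held 47.3% to 57.4% genes called higher.

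The profile of bar-1 over the 6 libraries was most like those of Y71H2AM.25, the neuropeptide gene flp-18 and Y46H3A.5, with Pearson r of 0.9998, 0.998 and 0.998 for log2 CPM. That of mom-2 was most like those of hut-1, T21B10.4 and CC8.2, with r of 0.9999, 0.999 and 0.999. All such values share the difference between the groups, and 1295 of 16191 compared genes had an r above 0.95 with bar-1 and 1318 with mom-2. The ranks are therefore a description only.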

How the data were processed

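TruSeq libraries, a kit that keeps no strand, were prepared from total RNA of whole worms and read as single 50-base reads. Per the methods of the study and the submitters' processing notes, the authors mapped reads with TopHat2 2.0.6 to WBcel235 and summed unique alignments over each gene with featureCounts, whose strand setting is not given in the sources used here. The deposited counts carry no normalisation, and the deposited RPKM values were made by the authors from the counts and exon lengths. Reads of an overlapping antisense gene cannot be told apart, and reads of near-identical copies are lost.

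Genes were filtered with filterByExpr, scaled by TMM and compared in a quasi-likelihood fit of edgeR 4.0.16 under R 4.3.3 (two-sided, group alone in the model) with Benjamini-Hochberg adjustment. Standard errors and 95% intervals derive from its F statistic. The fit was tested on simulated counts in which few genes changed, as many up as down, which is unlike these data. Alternatives were other scalings and filters (1 CPM in 3 samples, or none), DESeq2 1.42.0, limma 3.58.1 on log2(RPKM + 1) and log2(RPKM + 0.1), an RPKM filter of 0.1 in 3 samples, and leaving out each library. On these log2 scales a pseudocount understates changes of low genes. After the data were seen, 2 were added, namely leaving out control replicate 1 and RNAi replicate 3 together, and TMM factors from genes above the median level. A single value was compared by an exact permutation test, two-sided, which with 3 against 3 cannot go below p = 0.1.

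The members and lists were chosen with earlier results of these data known. By rule, all members, all target genes and the 3 genes most correlated with bar-1 and with mom-2 are named. In each other role the rule takes the called gene with the largest rise and fall, and all genes of roles with 3 or fewer. Outside this rule, plr-1, pop-1 and the uncalled genes mom-1, vps-26, cam-1 and lin-18 are named. Symbols are those of the count table, plr-1 was matched by its sequence name Y47D3B.11, and 1 listed marker had no entry of its own. Positions are from Ensembl release 115 on WBcel235. Protein and promoter sequences were not analysed here.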

Additional observations from a re-analysis of the deposited data

How the results depend on the processing

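Over 17 alternatives the 8 called members kept their direction and their call in every one. The gene egl-20 was called higher with limma on RPKM plus 1 and plus 0.1, upper quartile factors, library size only, and factors from above-median genes (log2 0.38, 0.60, 0.55, 0.66 and 0.64). Apart from egl-18, which limma on RPKM plus 1 called higher, signs changed only for genes that had no call under that setting. The value of lin-44 was −0.014 with DESeq2 size factors, −0.013 with DESeq2 and −0.012 without control replicate 1 and RNAi replicate 3 together, and −0.12 to 0.20 when single libraries were left out. With upper quartile factors, library size only, limma on RPKM plus 1, plus 0.1 and with the RPKM filter, and factors from genes above the median level, wrm-1 had 0.046, 0.16, 0.15, 0.15, 0.15 and 0.14, sys-1 had 0.071, 0.18, 0.17, 0.18, 0.17 and 0.17, and egl-18 had 0.092, 0.20, 0.20, 0.20, 0.20 and 0.19. With 1 CPM in 3 samples sys-1 had 0.017 and egl-18 had 0.037, and without the same 2 libraries sys-1 had 0.0027. Leaving out single libraries gave −0.13 to 0.0080 for sys-1, −0.028 to 0.42 for pop-1, −0.016 to 0.43 for egl-5 and 0.19 to 0.79 for bcat-1. Why these values moved was not tested.

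The number of other Wnt pathway genes called lower was 8 with upper quartile factors, 3 with library size only, 3 with each limma fit and 3 with factors from genes above the median level, and 8 to 13 when single libraries were left out. The target genes called higher were 3 without control replicate 1 and RNAi replicate 3. Over all genes, those called lower were 1947 with library size only, 1934, 1918 and 1851 with the limma fits on RPKM plus 1, plus 0.1 and with the RPKM filter, and 2052 with factors from genes above the median level, against 4189. Those called higher and lower were 5907 and 4189 with TMM, 5357 and 5014 with DESeq2's size factors, and 7332 and 1947 when scaled by library size. No paired analysis was possible because the labels number all 6 samples in 1 series and name no pairs, and the replicate numbers used here only name samples in the order of deposit. With 1 CPM in 3 samples lin-44 was left untested, and its 22 to 54 reads per library limit what can be seen.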
